A study of Mus musculus with 5 samples.

Results

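Pou5f1, Sox2, Nanog and Sall4 are 4 transcription factors of the embryonic stem cell state. They were chosen by name, as core factors of that state, and make up 4 of the 28642 rows of a table of gene counts. All 4 were found and tested. The RNA came from ES-D3, an embryonic stem cell line of the mouse, and 5 libraries had been counted by Helicos sequencing, which reads single molecules without amplification. Of these, 2 libraries came from cells with lentiviral short hairpins against Trim28 (shTrim28 replicates 1 and 2), 2 from cells with hairpins against Wtx (labelled shWtx, replicates 1 and 2), and 1 from control cells with a hairpin against GFP (shGFP). Each library carries a different hairpin, and the control is 1 hairpin in 1 library. All cells had grown on irradiated feeder cells with leukemia inhibitory factor (LIF), had been selected with puromycin, and had been replated to remove feeder cells before extraction. Trim28 is a corepressor that KRAB zinc finger proteins bring to chromatin. Wtx, with the symbol Amer1 today and Fam123b in the table, works in the complex that degrades beta-catenin.

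Pou5f1 (Oct4) is a POU domain protein that binds the octamer sequence in DNA, often side by side with the HMG box protein Sox2 on a joint Sox-octamer element. Nanog is a homeodomain protein and Sall4 a zinc finger protein, and in mouse embryonic stem cells the factors bind the regulatory DNA of each other's genes. High levels of the set are a mark of undifferentiated cells, and their levels go down on differentiation. Pou5f1 and Sox2 are needed to keep the pluripotent state, Nanog stabilises it, and Sall4 is known for holding back trophoblast genes and for binding the NuRD corepressor complex.

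The 4 hairpins are shown because they define the groups. Each had 21 bases, and capitals mark the longest run that also occurs, on either strand, in a GENCODE M21 transcript of any of the 4 factors.
shTrim28 replicate 1: ccaccAGTCTTCAAggtcttt
shTrim28 replicate 2: ccgcATGTTCAAAcagttcaa
labelled shWtx replicate 1: gccagacATGCAAGAAgcaaa
labelled shWtx replicate 2: ccagacATGCAAGAAgcaaat
On GRCm38 the hairpins against Trim28 matched coding sequence in exon 12 and exon 16 of 17 on chromosome 7, from 13029440 to 13029460 and from 13030559 to 13030579. Those against Wtx lay in the coding part of the last exon of Amer1 (exon 2 of 2, chromosome X, minus strand), from 95426292 to 95426312 and from 95426291 to 95426311. They share 20 of 21 bases, so that pair is close to 1 hairpin used in 2 libraries. The longest run shared with a transcript of the 4 factors was 9 bases for each hairpin. The best ungapped match held 14 of 21 bases for both hairpins against Trim28 and 15 of 21 for both against Wtx.

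Promoter windows are shown because 3 of the factors were lower together in shTrim28 and because the factors are known to bind such elements. No promoter window matched Sall4 by symbol, so the windows of the factors that fell could not be compared with that of Sall4. RefSeq windows on GRCm38.p6, from 250 bases before to 50 bases after an annotated start site, matched 3 of the 4 factors by symbol with 5 windows, and 1 window is printed for each of those 3, 5′ to 3′ on the plus strand. Capitals mark matches, on either strand, to a joint element written as CATTGT, any base and ATGCAAA, to its octamer part ATGCAAA and its Sox part CATTGT alone, to the nuclear receptor element AGGTCA and to the GC box GGGCGG.
Pou5f1, chr17:35505782-35506081: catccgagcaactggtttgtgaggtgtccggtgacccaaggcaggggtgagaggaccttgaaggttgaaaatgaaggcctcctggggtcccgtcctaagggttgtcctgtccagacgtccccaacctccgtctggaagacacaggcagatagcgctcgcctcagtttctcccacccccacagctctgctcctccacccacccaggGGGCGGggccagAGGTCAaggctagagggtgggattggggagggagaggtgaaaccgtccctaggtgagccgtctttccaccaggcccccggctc
Sox2, chr3:34649745-34650044: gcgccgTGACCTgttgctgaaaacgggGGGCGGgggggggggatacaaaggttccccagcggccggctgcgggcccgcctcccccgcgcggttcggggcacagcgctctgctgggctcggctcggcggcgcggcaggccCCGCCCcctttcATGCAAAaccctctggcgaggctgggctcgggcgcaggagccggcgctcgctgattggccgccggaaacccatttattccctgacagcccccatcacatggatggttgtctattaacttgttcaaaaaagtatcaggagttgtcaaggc
Nanog, chr6:122707315-122707614: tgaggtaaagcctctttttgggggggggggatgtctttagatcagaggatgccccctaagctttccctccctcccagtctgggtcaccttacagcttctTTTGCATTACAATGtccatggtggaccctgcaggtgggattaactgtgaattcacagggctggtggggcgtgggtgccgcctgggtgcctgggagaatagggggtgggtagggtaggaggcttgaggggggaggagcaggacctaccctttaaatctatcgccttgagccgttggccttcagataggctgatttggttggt
Matches to the joint element of Sox2 and Pou5f1 were found in 2 of 32851 promoter windows of the same length (0.00609%), and both were the overlapping windows of Nanog, with the same site on the minus strand. It lies from −151 to −138 relative to the start site of the printed window, and the matches to the octamer and Sox parts in Nanog lie inside it. The window of Sox2 held the octamer part at −99 to −93, as did 4.63% of all windows, along with GC boxes at −223 to −218 and −111 to −106 and a receptor element at −244 to −239. In Pou5f1 the GC box at −45 to −40 and the receptor element at −33 to −28 stand next to each other, and no octamer part was found in the printed window. Such matches were common elsewhere, with the receptor element in 16.3% of windows, the GC box in 35.7% and the Sox part in 12.6%. The joint element was searched as an exact string with any base allowed only between its parts, so elements with other differences were not counted. These are matches of letters, and binding was not measured.

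Gene totals were 280614 to 1901563 estimated counts per library, lowest in shTrim28 replicate 1 and highest in shTrim28 replicate 2. The 4 factors together held 164 and 937 counts in shTrim28, 651 and 333 in the libraries labelled shWtx, and 794 in shGFP. Trim28 stood at 65.3 and 48.3 CPM in shTrim28 (the count relative to library size, scaled by the TMM method), 400 and 396 CPM in the libraries labelled shWtx, and 783 CPM in shGFP. It was lower in both hairpin groups relative to shGFP, by log2 fold changes of −3.88 in shTrim28 and −0.97 in the libraries labelled shWtx (edgeR adjusted p = 2.78e-09 and 0.0108). Fam123b was not lower in the libraries labelled shWtx (26.3 and 16.5 CPM, against 14.3 CPM in shGFP, from 19, 6 and 8 counts), which is why those are called by their label throughout. Nothing in the labels says that libraries of a group came from separate cultures apart from their hairpins. The p-values therefore measure only the spread between these libraries, in which effects of hairpin, culture and library preparation cannot be told apart. Chemoreceptor genes, which embryonic stem cells are not known to use, stood at 1.15 and 0.791 CPM per kilobase in shTrim28, 2.31 and 1.96 in the libraries labelled shWtx, and 0.174 in shGFP. Reads at that density would make up at most 0.602% of the Pou5f1 counts, 4.36% of Sox2, 3.94% of Nanog and 8.46% of Sall4, each in the library labelled shWtx replicate 1. Fam123b stood at 3.09 and 1.94 CPM per kilobase in the libraries labelled shWtx, near the chemoreceptor density there. In shGFP it stood at 1.69, above that density. Whether Wtx RNA was lowered therefore cannot be told from these counts.

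The labelled cell type was checked against 10 other embryonic stem cell markers. All 10 were counted in every library except for Dppa3 (Stella), which was at 0 in the library labelled shWtx replicate 2. The list summed to 1234 and 1477 CPM in shTrim28, 2213 and 2426 CPM in the libraries labelled shWtx, and 4970 CPM in shGFP. Of 21 fibroblast markers, which feeder cells would carry, Lum (lumican) was at 0 in shTrim28 replicate 1, in the library labelled shWtx replicate 2 and in shGFP, and the rest were counted in all libraries. The list summed to 5243 and 6032 CPM in shTrim28, 2426 and 2822 CPM in the libraries labelled shWtx, and 2624 CPM in shGFP. So the shTrim28 libraries had the lowest levels of the stem cell list and the highest of the fibroblast list. The part of fibroblast RNA in the values of the factors was not tested, and in RNA of whole cultures fewer cells of a type and less RNA per cell cannot be told apart.

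Pou5f1, Sox2 and Nanog fell in shTrim28 and Sall4 did not pass the test. The changes relative to shGFP ran from 3.47-fold lower for Pou5f1 over 2.47-fold for Sox2 and 2.19-fold for Nanog to a log2 fold change of −0.25 for Sall4. The series title names differentiation as the process on which Trim28 was studied. Of 10878 genes tested, 6.53% passed the threshold (adjusted p under 0.05) in shTrim28 against shGFP, 2.26% as lower and 4.27% as higher. The split was 464 higher and 246 lower. It moved to 390 and 336 with DESeq2 size factors and to 237 and 67 with quantile normalization, and limma-voom turned it to 314 higher and 453 lower. By edgeR, lower calls made up 6.49% of the genes with a mean of 100 to 400 CPM and 9.38% of those over 400 CPM. Of the 4 factors 3 passed, all lower. No test set the fold change of Sall4 against those of the other factors.

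Pou5f1 stood at 298 CPM (82 counts) and 212 CPM (378 counts) in shTrim28, against 856 CPM (478 counts) in shGFP. Both shTrim28 libraries lay below the control, and their counting intervals, 237 to 369 CPM and 191 to 235 CPM, did not reach the interval of shGFP, 781 to 936 CPM. The group mean was 255 ± 60.4 CPM (SD, n = 2), or 29.8% of shGFP. The log2 fold change was −1.80 (SE 0.27, edgeR adjusted p = 5.48e-05), and 0.984% of the genes tested had a lower value. Between the hairpins the level was 1.40 times as high in replicate 1 as in replicate 2, and these counting intervals did not overlap either.

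Sox2, the partner of Pou5f1 on the joint element, stood at 76.2 CPM (21 counts) and 97.1 CPM (173 counts) in shTrim28, against 224 CPM (125 counts) in shGFP. Neither counting interval in shTrim28, 47.2 to 116 CPM and 83.2 to 113 CPM, reached that of shGFP, 186 to 267 CPM. The mean was 86.6 ± 14.8 CPM (SD, n = 2), 38.7% of shGFP, with a log2 fold change of −1.31 (SE 0.30, edgeR adjusted p = 0.00763). Unlike Pou5f1, its level was the higher one in replicate 2, though the 2 counting intervals overlapped.

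Nanog stood at 83.5 CPM (23 counts) and 80.8 CPM (144 counts) in shTrim28, against 179 CPM (100 counts) in shGFP. The pair of shTrim28 libraries lay close together and below the control, whose counting interval was 146 to 218 CPM. The mean was 82.1 ± 1.87 CPM (SD, n = 2), 45.9% of shGFP, with a log2 fold change of −1.13 (SE 0.30, edgeR adjusted p = 0.0226).

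Sall4 stood at 138 CPM (38 counts) and 136 CPM (242 counts) in shTrim28, against 163 CPM (91 counts) in shGFP. The counting intervals, 97.6 to 189 CPM and 119 to 154 CPM in shTrim28 and 131 to 200 CPM in shGFP, overlapped in all pairings. The mean was 137 ± 1.47 CPM (SD, n = 2), 84.0% of shGFP. Its log2 fold change was −0.25 (SE 0.30, edgeR adjusted p = 0.683) and its 95% interval ran from −0.86 to 0.35. For all genes the median was 0.16, and for the 1356 genes with a mean of 100 to 400 CPM it was −0.10.

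These calls rested on the pairs of hairpins for their spread. Without shTrim28 replicate 1 edgeR called 0 of all genes (1675 at an unadjusted p under 0.05), while the log2 fold changes of Pou5f1, Sox2 and Nanog were −2.02, −1.21 and −1.15 (adjusted p = 0.328 each). Without shTrim28 replicate 2 Nanog alone missed the threshold (−1.11, adjusted p = 0.0792).

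**Figure D1:**
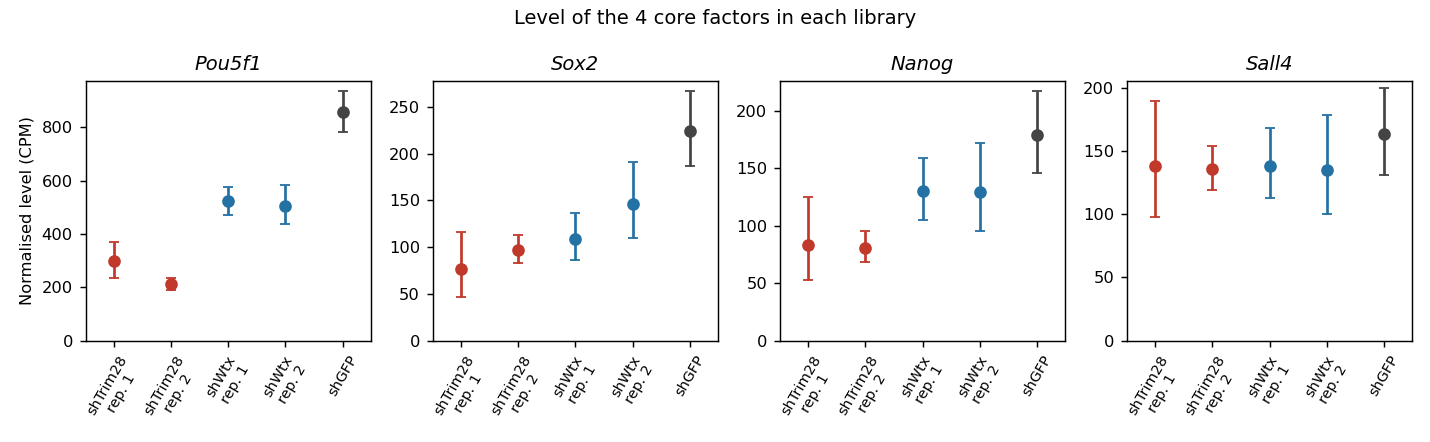
Level of each factor (CPM, linear axes from 0) in the 2 shTrim28 libraries, the 2 libraries labelled shWtx and shGFP, with exact 95% Poisson intervals that cover counting error. Pou5f1, Sox2 and Nanog were lowest in shTrim28 and highest in shGFP, and Sall4 lay between 135 and 163 CPM in all 5 libraries.

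In the libraries labelled shWtx all 4 factors had lower values than in shGFP, except that Sall4 was at 0.04 on the log2 scale after subtraction of background reads, and 0 of the 4 passed the threshold by edgeR. At an unadjusted p under 0.05 there were 2, Pou5f1 and Sox2, and limma-voom called both. Of all genes tested, 15.8% passed in this comparison, 4.94% as lower and 10.9% as higher. The split was 1184 higher and 537 lower, or 549 and 81 with quantile normalization and 744 and 672 by limma-voom. Abundant genes as a whole were lower there, with a median log2 fold change of −0.42 for genes with a mean of 100 to 400 CPM and −0.69 for those over 400 CPM, against 0.06 for all genes. Lower calls made up 14.7% and 44.1% of these ranges.

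Pou5f1 stood at 523 CPM (378 counts) and 507 CPM (184 counts) in the libraries labelled shWtx, against 856 CPM in shGFP, which is 60.1% of shGFP on average. Those libraries lay between shTrim28 and the control without overlap of the counting intervals. The log2 fold change of −0.73 (SE 0.26, edgeR adjusted p = 0.0572) was close to the median of the 320 genes over 400 CPM. Sox2 stood at 109 CPM (79 counts) and 146 CPM (53 counts) in the libraries labelled shWtx, 57.0% of shGFP on average. Its log2 fold change was −0.84 (SE 0.30, edgeR adjusted p = 0.0586), the lowest of the 4 factors in this comparison. Nanog stood at 130 CPM (94 counts) and 129 CPM (47 counts), 72.4% of shGFP on average, with a log2 fold change of −0.46 (SE 0.30, edgeR adjusted p = 0.299). Sall4 stood at 138 CPM (100 counts) and 135 CPM (49 counts), with a log2 fold change of −0.25 (SE 0.30, edgeR adjusted p = 0.594) and a 95% interval from −0.87 to 0.36. Without shTrim28 replicate 2, which enters the common spread, Pou5f1 and Sox2 passed the threshold as lower (log2 fold changes −0.70 and −0.81, edgeR adjusted p = 0.0192 and 0.0252).

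Set against each other, the shTrim28 libraries had less Pou5f1 than the libraries labelled shWtx, and no difference in Sall4 was detected. Of all genes, 15.3% passed in shTrim28 against the libraries labelled shWtx, 9.83% as lower and 5.45% as higher. The log2 fold change of Pou5f1 was −1.06 (SE 0.23, edgeR adjusted p = 0.0026), with 82 and 378 counts in shTrim28, against 378 and 184 counts with the hairpins labelled shWtx. In CPM both shTrim28 libraries lay below both labelled shWtx for Pou5f1, and the same held for Sox2 and Nanog. The share of all genes separated in this way was not counted. Nanog (−0.67, SE 0.26, edgeR adjusted p = 0.0837) and Sox2 (−0.47, SE 0.27, edgeR adjusted p = 0.237) did not pass. Sall4 had a log2 fold change of −0.003 (SE 0.25, edgeR adjusted p = 0.996) with a 95% interval from −0.51 to 0.51. The call of Pou5f1 was lost without shTrim28 replicate 1 (−1.27, edgeR adjusted p = 0.157), without shTrim28 replicate 2 (−0.83, adjusted p = 0.0682) and without the library labelled shWtx replicate 1 (−1.07, adjusted p = 0.0897). The comparisons with shGFP share that single library, so their likeness is no independent result.

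**Figure D2:**
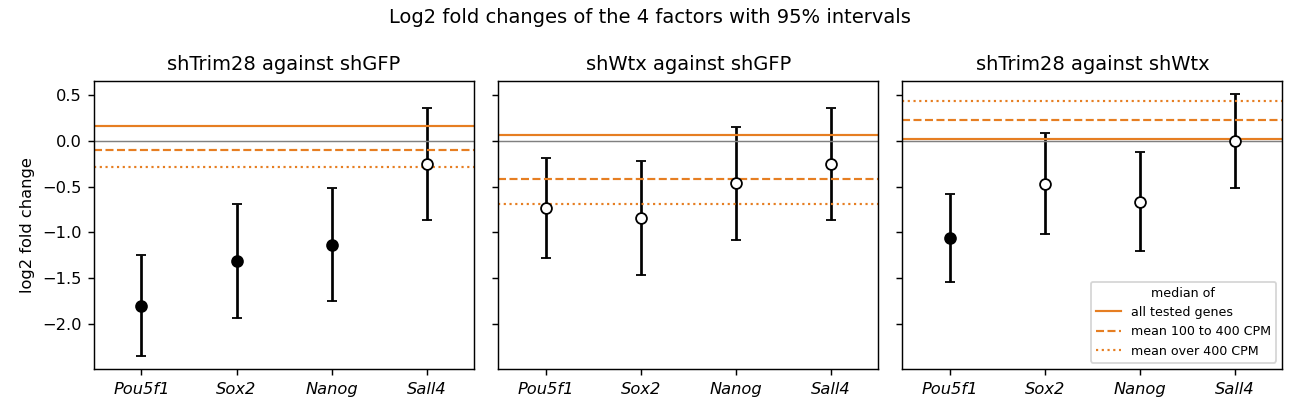
Log2 fold change of each factor in the 3 comparisons, with approximate 95% intervals from the edgeR fit. Filled points passed the threshold of adjusted p under 0.05, orange lines mark the median of all tested genes and of genes in 2 ranges of mean level, and the grey line marks 0. Pou5f1, Sox2 and Nanog passed in shTrim28 against shGFP and Pou5f1 in shTrim28 against shWtx.

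The make-up of the 4 factors within a library needs no scaling between libraries. Sall4 made up 23.2% (38 of 164 counts, Wilson 95% interval 17.4 to 30.2) and 25.8% (242 of 937, 23.1 to 28.7) of their counts in shTrim28, against 11.5% (91 of 794, 9.43 to 13.9) in shGFP. The intervals of both shTrim28 libraries lay above that of shGFP. A share also rises when the other factors fall, and Sall4 itself stood at 138 and 136 CPM in shTrim28, against 163 CPM in shGFP. With the hairpins labelled shWtx its share was 15.4% (12.8 to 18.3) and 14.7% (11.3 to 18.9), which overlapped shGFP. Pou5f1 made up 50.0% (42.4 to 57.6) and 40.3% (37.2 to 43.5) in shTrim28, 58.1% and 55.3% in the libraries labelled shWtx, and 60.2% (56.8 to 63.5) in shGFP. The interval of shTrim28 replicate 2 lay below those of shGFP and of both libraries labelled shWtx, while that of replicate 1 overlapped them all. Sox2 made up 12.8% and 18.5% in shTrim28, 12.1% and 15.9% in the libraries labelled shWtx, and 15.7% in shGFP, and Nanog made up 14.0% and 15.4%, 14.4% and 14.1%, and 12.6% in the same libraries. For Sox2 and Nanog the intervals in shTrim28 overlapped those of shGFP. As ratios within a library, Pou5f1 had 2.16 and 1.56 counts per count of Sall4 in shTrim28, 3.78 and 3.76 in the libraries labelled shWtx, and 5.25 in shGFP. The corresponding ratios of Nanog to Sall4 were 0.605 and 0.595 in shTrim28, 0.940 and 0.959 in the libraries labelled shWtx, and 1.10 in shGFP. Intervals here cover counting error only, and they compare libraries rather than conditions.

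**Figure D3:**
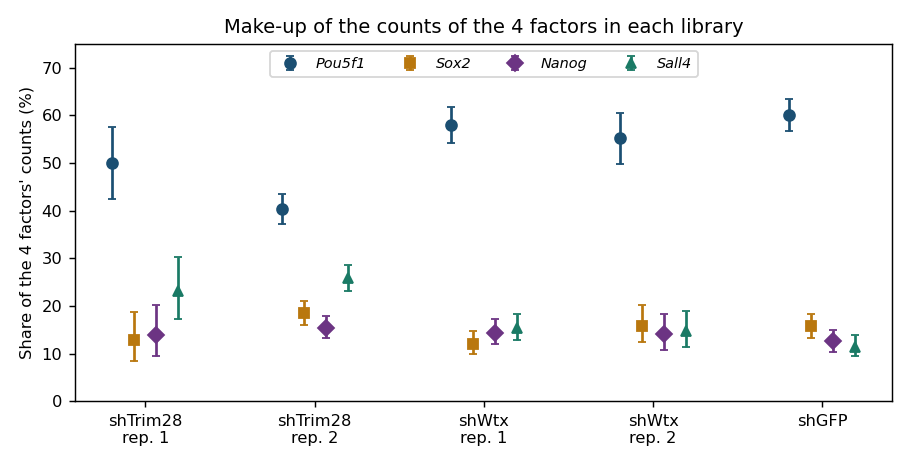
Share of each factor in the summed counts of the 4 factors (percent) in each library, with Wilson 95% intervals. Sall4 made up 23.2% and 25.8% in shTrim28, against 11.5% in shGFP, while Pou5f1 made up 50.0% and 40.3% in shTrim28, against 60.2% in shGFP. A share also rises when the other factors fall.

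Levels were compared between the factors per kilobase of the transcript, with lengths of 1362 bases for Pou5f1 (5 exons, chromosome 17), 2057 for Sox2 (1 exon, chromosome 3), 2211 for Nanog (4 exons, chromosome 6) and 5073 for Sall4 (4 exons, chromosome 2). The sources used here do not state whether a longer transcript gave more reads in this protocol. On this scale Pou5f1 was the highest in every library, with 218 and 156 CPM per kilobase in shTrim28, 384 and 372 in the libraries labelled shWtx, and 628 in shGFP. Sox2 stood at 37.0 and 47.2 in shTrim28, 53.1 and 70.9 in the libraries labelled shWtx, and 109 in shGFP. Nanog stood at 37.7 and 36.5 in shTrim28, 58.8 and 58.5 in the libraries labelled shWtx, and 81.0 in shGFP. Sall4 was the lowest in every library, with 27.2 and 26.8 in shTrim28, 27.2 and 26.6 in the libraries labelled shWtx, and 32.1 in shGFP. Nanog was above Sox2 in shTrim28 replicate 1 and in the library labelled shWtx replicate 1, and below it in the others, with overlapping counting intervals in all 5 libraries. In shTrim28 replicate 1 the intervals of both overlapped that of Sall4 as well, and Pou5f1 lay apart from the rest in all 5. The place of Sall4 depends on the division by length. In CPM it was above Sox2 and Nanog in both shTrim28 libraries and in the library labelled shWtx replicate 1. In shGFP it was the lowest in CPM too, and in the library labelled shWtx replicate 2 it lay between Nanog and Sox2. Annotation places noncoding genes over the exons of Pou5f1 (Gm19553, on the other strand, 317 exonic bases) and Sall4 (Gm14261, on the other strand, 526 exonic bases), and Sox2 lies inside Sox2ot without exonic overlap. None of these has a row in the table, and the sources used here do not state how strand was treated in counting. Retrocopies of Pou5f1 and Nanog are known in the mouse genome, and how reads of such copies were assigned is uncertain.

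Most relatives of the factors were low. Of 13 other POU genes in the table, 3 had enough counts to be tested. In no comparison did edgeR, limma or DESeq2 call any of these 3 (1 had an unadjusted p under 0.05, in shTrim28 against the libraries labelled shWtx), and the highest, Pou3f1, averaged 4.28 CPM per kilobase over the 5 libraries. The other spalt-like genes, Sall1, Sall2 and Sall3, averaged 2.78, 2.76 and 2.67 CPM per kilobase, and of these Sall3 was lower in shTrim28, with 3 and 15 counts, than with the hairpins labelled shWtx, with 28 and 8 counts (log2 fold change −1.83, edgeR adjusted p = 0.0165). Of 17 other Sox genes 7 were tested. Sox9 and Sox4 averaged 61.2 and 55.3 CPM per kilobase, in the range of Sox2. Both passed as higher in shTrim28 against the libraries labelled shWtx. Sox4, an HMG box factor of many embryonic tissues, stood at 381 and 325 CPM in shTrim28 and 205 and 173 CPM with the hairpins labelled shWtx (log2 fold change 0.87, edgeR adjusted p = 0.0119). Sox9, a factor of cartilage and other tissues, stood at 352 and 304 CPM in shTrim28 and 203 and 193 CPM with the hairpins labelled shWtx (log2 fold change 0.71, edgeR adjusted p = 0.039). Against shGFP (242 CPM for Sox4 and 213 CPM for Sox9) 0 of the 7 passed by edgeR, limma or DESeq2 in either hairpin group, with 1 at an unadjusted p under 0.05 in shTrim28 and 0 in the libraries labelled shWtx. The call of Sall3 was lost without either shTrim28 library and without the library labelled shWtx replicate 1, and with any 1 of the 4 hairpin libraries left out at most 1 of the Sox genes passed. Both the Sall3 and the Sox calls were also lost by the DESeq2 Wald test, without a filter on low counts and after subtraction of background reads, and that of Sall3 with quantile normalization. Of the 2 Sox calls, 1 was left with DESeq2 size factors, with upper-quartile factors, with quantile normalization and with only those groups fitted.

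Genes that textbooks give as targets of Pou5f1 with Sox2 had a lower median than all genes in shTrim28, and 8 of the 11 tested (of 12) fell, against 2.26% of all genes tested. They were Zfp42, Utf1, Fbxo15, Dppa5a, Jarid2, Dppa4, Tdgf1 and Lefty1. Over all 11 the median log2 fold change was −1.45, against 0.16 for all genes. Of these 11, 5 had a mean of 100 to 400 CPM and 2 a mean over 400 CPM. In shTrim28 those ranges had 6.49% and 9.38% lower calls. Zfp42 (Rex1), a zinc finger protein of naive stem cells, stood at 112 and 82.5 CPM in shTrim28, against 729 CPM in shGFP. Utf1, a chromatin protein of undifferentiated cells, stood at 29.0 and 37.0 CPM in shTrim28, against 215 CPM in shGFP. Dppa5a, an RNA-binding protein of stem cells, stood at 653 and 788 CPM in shTrim28, against 2763 CPM in shGFP. For all 3 the shTrim28 values lay far below the control, with log2 fold changes of −2.98, −2.61 and −1.93 (edgeR adjusted p = 1.08e-07, 4.12e-06 and 1.09e-05). In the libraries labelled shWtx 6 of the 11 fell, against 4.94% of all genes, with a median of −1.01. Of the 11, 5 had a mean of 100 to 400 CPM and 2 a mean over 400 CPM, the ranges with 14.7% and 44.1% lower calls there. Among those that fell were Spp1 (osteopontin) at 699 and 845 CPM, against 2600 CPM in shGFP, Tdgf1 (Cripto, a Nodal coreceptor) at 293 and 333 CPM, against 768 CPM in shGFP, and the Nodal antagonist Lefty1 at 82.9 and 77.1 CPM, against 227 CPM in shGFP. Between the hairpin groups 6 were lower and 1 higher in shTrim28 than in the libraries labelled shWtx, against 9.83% and 5.45% of all genes. Spp1 was the 1 higher, with 1096 and 1833 CPM in shTrim28, and Fbxo15 was among those lower, with 47.2 and 49.4 CPM in shTrim28, against 124 and 118 CPM with the hairpins labelled shWtx. Without shTrim28 replicate 1 edgeR called 0 of these genes in any comparison. Without the library labelled shWtx replicate 1 the lower calls were 2 in the libraries labelled shWtx and 2 between the hairpin groups. The higher call of Spp1 was lost without any 1 of the 4 hairpin libraries. The 8 lower calls in shTrim28 became 5 without a filter, the 6 between the hairpin groups became 2 without a filter, and the 6 in the libraries labelled shWtx became 3 with quantile normalization.

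Of 26 other factors of the stem cell network that were tested (of 30), 6 fell and 1 rose in shTrim28, against 2.26% and 4.27% of all genes, and their median was −0.56. Among genes at 100 to 400 CPM, a range that held 9 of the 26, lower calls made up 6.49%. Nr0b1 (Dax1), an orphan nuclear receptor, stood at 3.63 and 2.81 CPM (1 and 5 counts) in shTrim28, against 77.0 CPM (43 counts) in shGFP. Esrrb, an orphan nuclear receptor of naive cells, stood at 39.9 and 28.1 CPM in shTrim28, against 176 CPM in shGFP. Their log2 fold changes were −4.64 (SE 0.57) and −2.50 (SE 0.34), with edgeR adjusted p = 4.12e-06 and 2.05e-05. Both lay lower relative to shGFP than any of the 4 core factors. Zfp42, also a target above, the Kruppel-like factors Klf2 and Klf5 and the T-box factor Tbx3 were the others that fell, and the zinc finger gene Zfx rose. With the hairpins labelled shWtx the median of the 26 was −0.48, against 0.06 for all genes and −0.42 for those at 100 to 400 CPM. That range held 9 of the 26, 0 had a mean over 400 CPM, and the rest had lower means. Of the 26, 5 fell in those libraries, against 4.94% of all genes. Among them were Klf2 at 102 and 63.3 CPM, against 206 CPM in shGFP, and Klf5 at 126 and 165 CPM, against 306 CPM in shGFP (log2 fold changes −1.26 and −1.10, edgeR adjusted p = 0.00748 and 0.0128). Between the hairpin groups 5 were lower and 1, the LIF effector Stat3, was higher in shTrim28, against 9.83% and 5.45% of all genes, and the call of Stat3 was lost without any 1 of the 4 hairpin libraries and by the DESeq2 Wald test. These counts were 0 without shTrim28 replicate 1. The lower calls in the libraries labelled shWtx came to 1 without either of those libraries, and those between the hairpin groups to 2 without shTrim28 replicate 2 or without the library labelled shWtx replicate 1. The rise of Zfx was lost without shTrim28 replicate 2, without the library labelled shWtx replicate 1, with DESeq2 size factors, with quantile normalization, by limma-voom, by the DESeq2 Wald test, without a filter and after subtraction of background reads. The 5 lower calls with the hairpins labelled shWtx became 0 with quantile normalization and after that subtraction, and 1 by the DESeq2 Wald test and without a filter. Between the hairpin groups the 5 became 1 by the DESeq2 Wald test and 2 without a filter.

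LIF and BMP signals hold the factors up in culture, and 14 of 15 genes of those pathways could be tested. In shTrim28 3 rose and 1 fell, against 4.27% and 2.26% of all genes. Id2, an inhibitor of differentiation and a target of BMP signals, stood at 87.1 and 117 CPM in shTrim28, against 21.5 CPM in shGFP (log2 fold change 2.30, edgeR adjusted p = 0.00149). Id3, of the same family, stood at 287 and 361 CPM in shTrim28, against 91.3 CPM in shGFP (log2 fold change 1.85, edgeR adjusted p = 0.000438), and Id1 was the other that rose. The ligand Bmp4 stood at 7.26 and 1.68 CPM (2 and 3 counts) in shTrim28, against 35.8 CPM (20 counts) in shGFP (log2 fold change −3.72, edgeR adjusted p = 0.00285). Socs3 was the 1 that fell in the libraries labelled shWtx. It is the feedback inhibitor of LIF signals and stood at 38.7 and 46.8 CPM there, against 98.5 CPM in shGFP (log2 fold change −1.23, edgeR adjusted p = 0.0244). Between the hairpin groups 6 were higher and 1 lower in shTrim28, against 5.45% and 9.83% of all genes. All of these calls were lost without shTrim28 replicate 1. The fall of Bmp4 was lost without shTrim28 replicate 2 or the library labelled shWtx replicate 1 as well, that of Socs3 without that library labelled shWtx, and the 6 became 2 without either of them. With quantile normalization and by the DESeq2 Wald test the 3 that rose became 1 and the falls of Bmp4 and Socs3 were lost, and the DESeq2 Wald test left 2 of the 6. The fall of Socs3 was also lost without a filter and after subtraction of background reads, and that of Bmp4 against shGFP with only those groups fitted.

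Of 13 tested subunits of NuRD (of 14), the complex that Sall4 binds, 1 fell in shTrim28, against 2.26% of all genes, and 2 in the libraries labelled shWtx, against 4.94% of all genes and 14.7% of those at 100 to 400 CPM, a range that held 6 of the 13. Of the 13, 0 passed between the hairpin groups by edgeR, where 1 had an unadjusted p under 0.05 and limma-voom called 1. Rbbp4, a histone-binding subunit, stood at 283 and 366 CPM in shTrim28, 307 and 396 CPM in the libraries labelled shWtx, and 623 CPM in shGFP (log2 fold changes −0.91 and −0.84, edgeR adjusted p = 0.0389 and 0.0354). Cdk2ap1 stood at 88.5 and 110 CPM in the libraries labelled shWtx, against 201 CPM in shGFP (log2 fold change −1.04, edgeR adjusted p = 0.0208). These calls were lost without shTrim28 replicate 1, without the library labelled shWtx replicate 1, with quantile normalization and without a filter, and those in the libraries labelled shWtx also by the DESeq2 Wald test and after subtraction of background reads. Of 18 regulators of other lineages, which the core factors hold low, 7 had enough counts to be tested, and 1 passed as higher in each group against shGFP (4.27% of all genes in shTrim28 and 10.9% in the libraries labelled shWtx). Gata3, a trophoblast factor, rose in shTrim28 to 39.9 and 38.7 CPM (11 and 69 counts), against 7.16 CPM (4 counts) in shGFP (log2 fold change 2.42, edgeR adjusted p = 0.0266). Elf5, also a trophoblast factor, had 26 and 12 counts in the libraries labelled shWtx, against 1 count in shGFP, a ratio of 19.5 with an exact 95% counting interval from 3.30 to 791, and passed as higher (edgeR adjusted p = 0.00712). It was lower in shTrim28 (18.1 and 6.17 CPM) than in the libraries labelled shWtx (35.9 and 33.0 CPM). Both calls against shGFP were lost without shTrim28 replicate 1, that of Gata3 without shTrim28 replicate 2, and that of Elf5 without the library labelled shWtx replicate 1, and the lower call of Elf5 was lost without any 1 of the 4 hairpin libraries. Both calls against shGFP were also lost with quantile normalization, by limma-voom and by the DESeq2 Wald test, and that of Gata3 after subtraction of background reads. The lower call of Elf5 was also lost with quantile normalization, by the DESeq2 Wald test and after that subtraction.

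Beside these lists stood those that describe the cells, and several of the stem cell markers, such as Zfp42, Utf1, Dppa5a, Tdgf1 and Fbxo15, are also among the targets above. Of 9 embryonic stem cell markers tested, 6 fell in shTrim28, against 2.26% of all genes, with a median of −1.93. With the hairpins labelled shWtx 4 fell, against 4.94% of all genes, with a median of −0.77. Of the 9, 3 had a mean of 100 to 400 CPM and 1 a mean over 400 CPM. Lower calls made up 14.7% and 44.1% of these ranges with the hairpins labelled shWtx, against 6.49% and 9.38% for shTrim28. Between the hairpin groups 6 were lower in shTrim28, against 9.83% of all genes. Among them Tdh, the threonine dehydrogenase of mouse stem cells, stood at 29.0 and 26.4 CPM in shTrim28, against 82.9 and 71.6 CPM with the hairpins labelled shWtx. Of 19 fibroblast markers tested, 7 rose in shTrim28 relative to shGFP, against 4.27% of all genes, with a median of 1.08. Between the hairpin groups 12 were higher in shTrim28, against 5.45% of all genes. Col1a2, a chain of type I collagen, stood at 461 and 559 CPM in shTrim28, 178 and 201 CPM in the libraries labelled shWtx, and 141 CPM in shGFP. Tagln (transgelin), which binds actin in smooth muscle, stood at 149 and 138 CPM in shTrim28, 77.4 and 66.1 CPM in the libraries labelled shWtx, and 21.5 CPM in shGFP, and rose in both against shGFP. Acta2, smooth muscle actin, passed as higher in both groups from 1 count in shGFP, by a ratio of 30.9 in shTrim28 (exact 95% interval 5.44 to 1233) and 37.5 in the libraries labelled shWtx (6.53 to 1502). The proteoglycan gene Dcn was the 1 fibroblast marker that fell in the libraries labelled shWtx, to 56.7 and 55.1 CPM, against 141 CPM in shGFP. Without shTrim28 replicate 1 edgeR called 0 of both lists. Without the library labelled shWtx replicate 1, 0 stem cell markers and 1 higher and 0 lower fibroblast markers passed in the libraries labelled shWtx, and 2 stem cell and 4 fibroblast markers passed between the hairpin groups. Without shTrim28 replicate 2 the lower fibroblast markers in the libraries labelled shWtx came to 2. Without a filter the 6 stem cell markers between the hairpin groups became 1, and the 4 in the libraries labelled shWtx became 2 there and after subtraction of background reads and 1 with quantile normalization. By the DESeq2 Wald test the 12 fibroblast markers became 7 and the fall of Dcn was lost, and 1 fibroblast marker passed as higher with the hairpins labelled shWtx by that test and without a filter.

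**Figure D4:**
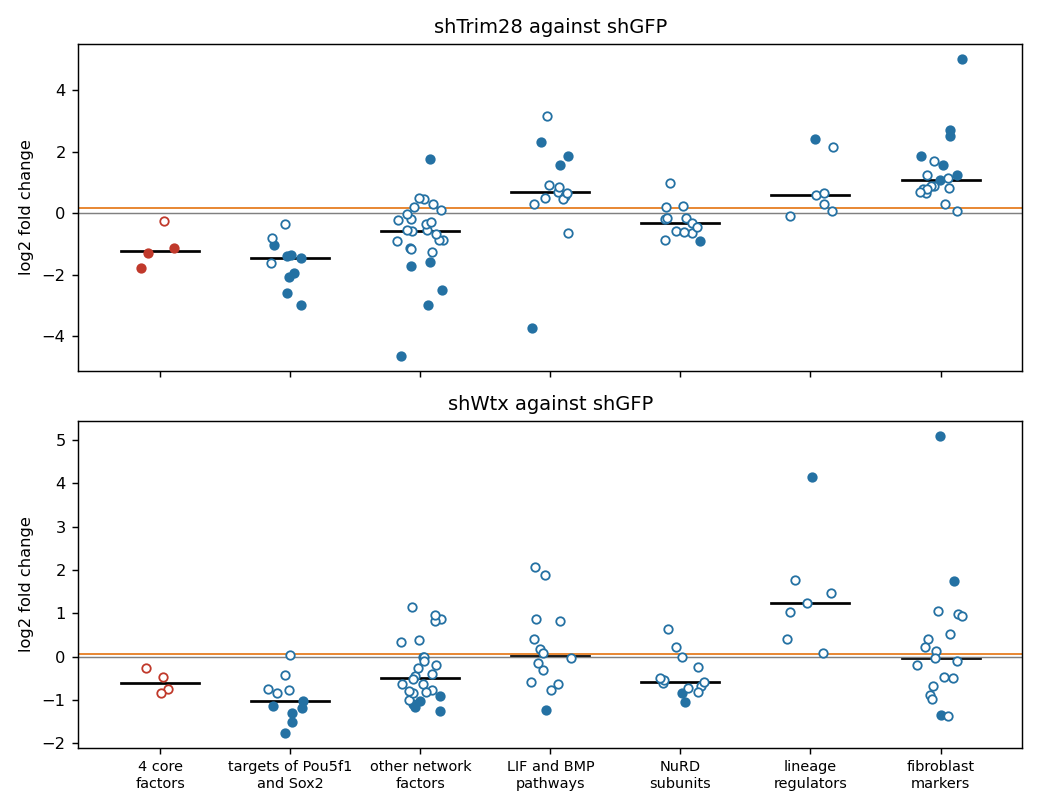
Log2 fold change of each tested gene of 7 groups in shTrim28 against shGFP (top) and in the libraries labelled shWtx against shGFP (bottom). Filled points passed the threshold of adjusted p under 0.05, short black lines mark the median of each group, and the orange line marks the median of all tested genes. The fitted values of Acta2 and Elf5 at the top rest on 1 count in shGFP.

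The genes with the profile most like each factor over the 5 libraries were found by the root mean square difference between centred log2(CPM + 1) values, among symbols with a mean CPM of at least 0.5 times that of the factor. For Pou5f1, out of 548 candidates, they were Hspb1 (0.10), Itch (0.14), Stmn2 (0.20) and Ogdh (0.24). For Sox2, out of 2508, they were Lefty2 (0.08), Rrn3 (0.10), E2f4 (0.11) and Rps4y2 (0.11). For Nanog, out of 2737, they were Pola2 (0.06), Ppa1 (0.08), Msh6 (0.09) and Rin1 (0.10). For Sall4, out of 2274, they were Trpc4ap (0.03), Cdv3 (0.05), Fasn (0.05) and Hyou1 (0.05). Between the factors themselves the difference was smallest for Sox2 and Nanog (0.22) and largest for Pou5f1 and Sall4 (0.63). Lefty2, a Nodal antagonist, stood at 58.1 and 70.1 CPM in shTrim28, 84.3 and 99.1 CPM in the libraries labelled shWtx, and 154 CPM in shGFP. Hspb1, a small heat shock protein, stood at 167 and 130 CPM in shTrim28, 315 and 319 CPM in the libraries labelled shWtx, and 446 CPM in shGFP. The 5 points fall in 3 groups, and the likeness is a description.

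**Figure D5:**
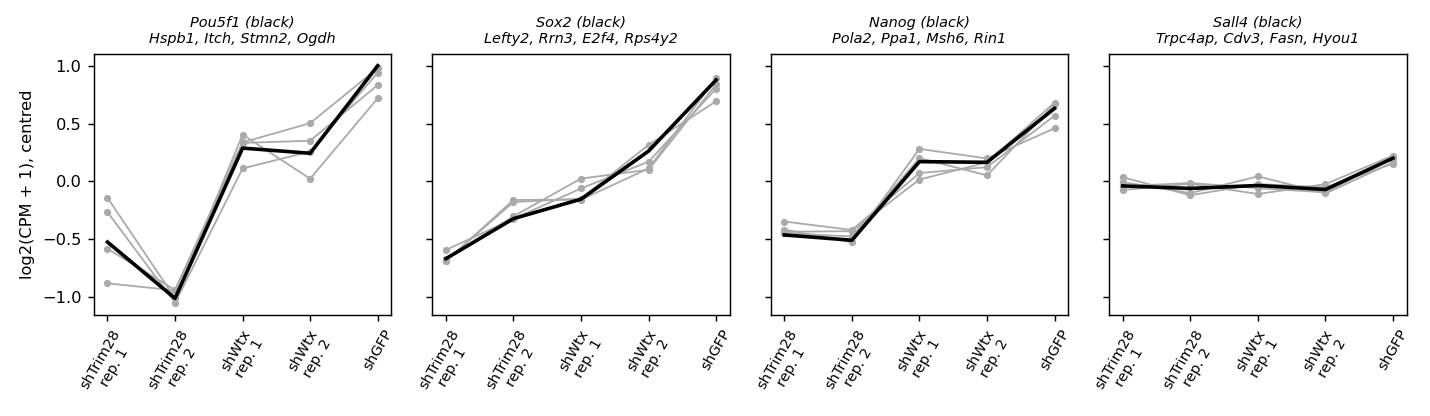
Centred log2(CPM + 1) of each factor (black) and of the 4 genes most like it (grey) over the 5 libraries. The profile of Sall4 was the flattest, and that of Pou5f1 spanned the widest range.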

How the data were processed

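Reads of 5 libraries were aligned to RefSeq and to Repbase, per the labels, and the submitters' processing notes name mm9. The sources used here name no aligner or counter. The authors deposited estimated counts per gene without scaling between libraries, and only that table was used. Estimated counts were rounded, and rows were kept by filterByExpr (10878 of 28642). The test was edgeR 4.0.16 (R 4.3.3), its two-sided quasi-likelihood test on all 5 libraries with TMM scaling and Benjamini-Hochberg adjustment over all tested genes. The control was a single library, whose spread was taken from the hairpin pairs (biological coefficient of variation 0.168, with 2 residual degrees of freedom). Standard errors and 95% intervals of log2 fold changes are approximate, from the F statistic. Alternatives used limma 3.58.1 and DESeq2 1.42.0. Of list symbols, 3 had no row that could be matched without doubt.

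Earlier results of these data were known when the 4 factors, the gene lists, the tests and the naming rule were chosen. From each list up to 3 genes with the lowest p were given with values, and the others past the threshold by name or count. Promoters come from RefSeq, and transcripts and hairpin sites from GENCODE M21 (GRCm38). GRCm38 positions were used only for those sequences. Intervals of counts, shares and ratios cover counting error only.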

Additional observations from a re-analysis of the deposited data

How the results depend on the processing

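In shTrim28 against shGFP, 13 alternatives left the log2 fold changes of all 4 factors below 0, and 12 kept Pou5f1 past the threshold, 10 Sox2, 8 Nanog and 0 Sall4. With limma on quantile-normalized log2(CPM + 1) values Sox2 was at −1.30 (adjusted p = 0.0515) and Nanog at −1.07 (adjusted p = 0.0927), leaving 1 factor. Without a filter on low counts Sox2 was at −1.19 (adjusted p = 0.171) and Nanog at −1.01 (adjusted p = 0.352), again leaving 1, and Pou5f1 in shTrim28 against the libraries labelled shWtx was at −0.85 (adjusted p = 0.159), leaving 0. By the DESeq2 Wald test Nanog was at −1.23 (adjusted p = 0.0963). In the libraries labelled shWtx against shGFP, 2 factors passed in 4 of the 13 alternatives, 1 of which leaves out a library, with Pou5f1 and Sox2 at −0.77 and −0.88 under DESeq2 size factors (adjusted p = 0.0419 and 0.0446), −0.73 and −0.86 under limma-voom (0.0348 and 0.0341) and −0.70 and −0.81 with only those groups fitted (0.0224 and 0.0309). Other settings brought these values nearer to 0. After subtraction of background reads Pou5f1, Sox2 and Nanog were at −0.35, −0.50 and −0.13 there (edgeR adjusted p = 0.469, 0.364 and 0.844). With quantile normalization they were at −0.48, −0.67 and −0.33 (limma adjusted p = 0.286, 0.255 and 0.532). In shTrim28 against the libraries labelled shWtx Nanog also passed by limma-voom (−0.67, adjusted p = 0.036) and after subtraction of background reads (−0.98, adjusted p = 0.0135), making 2 factors. The shares of the factors stayed within their intervals after that subtraction.

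Counts of all genes past the threshold in shTrim28 against shGFP, the libraries labelled shWtx against shGFP and shTrim28 against the libraries labelled shWtx were 710, 1721 and 1662 in the edgeR test. They were 304, 630 and 674 with quantile normalization, 261, 527 and 402 by the DESeq2 Wald test, 319, 1143 and 912 without a filter and 355, 524 and 889 after subtraction of background reads, and the last comparison had 3083 by limma-voom. Quantile normalization moved the median of all genes from 0.16 to −0.05 in shTrim28 against shGFP. Relative to these medians Pou5f1, Sox2, Nanog and Sall4 were at −1.96, −1.47, −1.30 and −0.42 with TMM and at −1.54, −1.26, −1.02 and −0.13 with quantile normalization. In the libraries labelled shWtx the median moved from 0.06 to −0.20, and Sall4 relative to it from −0.31 to 0.07.

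With each hairpin library left out in turn, shTrim28 against shGFP gave −2.02 to −1.53 for Pou5f1, −1.56 to −1.21 for Sox2, −1.21 to −1.11 for Nanog, 0 to 3 factors and 0 to 798 genes. The libraries labelled shWtx against shGFP gave −0.79 to −0.70 for Pou5f1, −1.03 to −0.65 for Sox2, 0 to 2 factors and 0 to 2340 genes. The hairpin groups against each other gave −1.27 to −0.83 for Pou5f1, 0 to 1 factors and 0 to 1100 genes. The count of 0 genes came without shTrim28 replicate 1 in all 3 comparisons, where 1675, 2804 and 3113 genes had an unadjusted p under 0.05. In shTrim28 against shGFP the lower calls ran from 0 to 10 among the known targets and from 0 to 9 among the network factors over all alternatives, and the higher calls from 0 to 9 among the fibroblast markers. These list counts were added after the data were seen. The cause of these changes was not tested.

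No paired analysis was possible because the replicate numbers follow the order of deposit and every library carries a different hairpin. The control is 1 library, so its own spread was not measured. Sox2 and Nanog rest on 21 and 23 counts in shTrim28 replicate 1, which sets the width of their intervals there.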
